A study of Rattus norvegicus with 20 samples.

Results

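The 6 mature miRNAs described here were rno-miR-135a-5p and rno-miR-135b-5p, which make up the miR-135 family, and rno-miR-15b-5p, rno-miR-16-5p, rno-miR-195-5p and rno-miR-497-5p of the miR-15/16 family (rno, for rat, is left out of the names from here on where they recur). They were chosen by name, as miRNAs with a background link to serotonin signalling and relatives of miR-16 that carry its seed. Earlier results of these data were known when they were chosen. They are 6 of the 617 miRNAs with reads. All 6 passed the count filter and are among the 500 miRNAs tested. Small RNA was sequenced from tissue punches of the adBNST, the anterodorsal part of the bed nucleus of the stria terminalis in the extended amygdala, of 20 Sprague-Dawley rats. The pups were weaned on day 21 and then lived either alone (socially isolated, SI) or with same-sex littermates in cages of 3 (group housed, GH) for 6 weeks. From each housing 5 males and 5 females were sequenced, named here by housing (G or I), number and sex, as in G16M. All had been tested once on the elevated plus maze at 9 weeks of age and were killed afterwards. The paper states that the sequenced females were selected for high RNA integrity and to cover a range of estradiol levels. The labels do not say which rats shared a litter or a cage, so p-values measure the spread between these rats only.

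MicroRNAs are loaded into Argonaute proteins and pair with messenger RNAs mainly through their seed, the stretch from base 2 to base 8, which lowers the stability and the translation of the message. Members of a family share the seed and so share many predicted targets. As background, miR-135 is known in serotonergic neurons for targeting the messages of the serotonin transporter and of the serotonin receptor Htr1a, and miR-16 is known for targeting the serotonin transporter. The miR-15/16 family is also known for restraining the cell cycle and for targeting the survival gene Bcl2, and its members come from precursor pairs that are transcribed together.

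The mature sequences, from RefSeq on the rat assembly GRCr8, are printed first because the families differ in the seed while relatives within a family differ by few bases outside it. The seed is in capitals. All 6 names were matched.

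rno-miR-135a-5p: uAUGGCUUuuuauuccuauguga
rno-miR-135b-5p: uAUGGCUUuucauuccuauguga
rno-miR-15b-5p: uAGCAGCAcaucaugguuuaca
rno-miR-16-5p: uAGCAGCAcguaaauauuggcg
rno-miR-195-5p: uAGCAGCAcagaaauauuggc
rno-miR-497-5p: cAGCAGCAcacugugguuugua

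Counted from the 5′ end, miR-135a-5p and miR-135b-5p were equal at 22 of 23 positions and differed by U11C, with the base of miR-135a-5p written first. miR-16-5p and miR-195-5p were equal at 19 of the 21 positions they share and differed by G10A and U11G. On GRCr8, miR-135a-5p lies at chr7:28499221-28499243 on the minus strand, within the locus LOC102548260, and miR-135b-5p at chr13:46191033-46191055 on the plus strand, within the span of Lemd1 and Blacat1. miR-15b-5p (chr2:155555197-155555218) and miR-16-5p (chr2:155555343-155555364) lie beside each other on the plus strand within Smc4, a gene for a subunit of condensin. miR-497-5p (chr10:55450172-55450193) and miR-195-5p (chr10:55450509-55450529) form the other pair, also on the plus strand. The deposited reads were aligned to miRNA hairpins and carry no genome coordinates, so these positions place the genes only.

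Because the miR-135 relatives differ by a single base, reads of one could in principle be counted for the other. Of the miR-135a-5p and miR-135b-5p reads, 0.111% and 0.375% matched several miRNAs. At the 11 other T positions of miR-135a-5p, between 0.00740% and 0.199% of its reads carried a C, whereas miR-135b-5p had 29.6% as many reads as miR-135a-5p. In the miR-15/16 family the share of reads matching several miRNAs was 0.0381% for miR-16-5p and 0.236% for miR-195-5p, and no such read was counted for miR-15b-5p or miR-497-5p.

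Libraries held 3428930 to 11383055 miRNA reads (median 6705043), and the members together took 0.0359% to 0.518% of them. The median was 4983188 reads in GH males, 7290553 in SI males, 5276646 in GH females and 6998674 in SI females. Distinct sequences in a library had medians of 15161, 15535, 17854 and 15580 in the same order. The neuronal miRNAs miR-124-3p, miR-9a-5p, miR-9a-3p and miR-128-3p were present in every library and summed to 85848 to 206460 CPM, the read count scaled by TMM to a library of 1000000 reads. The library of SI female I16F correlated least with its own group (median r = 0.862 over miRNAs, against 0.890 to 0.945 for the other libraries), and that of SI male I17M came next. The deposited file of each of the 2 SI rats numbered 17 carries the sex letter of the other, so the labels were followed, and the exchanged values are given where they alter the call of a named miRNA. In punched tissue, a smaller number of cells that hold a miRNA and a lower amount in each cell cannot be told apart.

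rno-miR-135a-5p was the most abundant member in reads, with a median of 804 CPM over the 20 rats (range 199 to 1874). rno-miR-16-5p followed at 654 CPM (131 to 1682.5), rno-miR-135b-5p at 258 CPM (37.2 to 556), rno-miR-195-5p at 115 CPM (14.7 to 257), rno-miR-15b-5p at 72.6 CPM (28.2 to 118) and rno-miR-497-5p at 11 CPM (0 to 36.6). The order between neighbours was the same in all 20 rats for miR-16-5p over miR-135b-5p and for miR-15b-5p over miR-497-5p. miR-135a-5p exceeded miR-16-5p in 15 of 20 rats, miR-195-5p exceeded miR-15b-5p in 16, and miR-135b-5p exceeded miR-195-5p in 19, so these neighbours overlapped in level. By the rank of its median among the 500 miRNAs tested, miR-135a-5p stood 107th and miR-497-5p 348th. A read spans a mature miRNA from end to end, so no length scaling was needed. The counts are of reads after amplification, and the efficiency with which each sequence enters a library was not measured.

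The first question was whether housing altered the members within each sex. miR-135b-5p was the member that fell in SI males, where it was 2.94-fold lower than in GH males. In GH males its level was 203, 301, 336, 407 and 454 CPM, and in SI males it was 56.0, 69.0, 143, 155 and 156 CPM. The highest SI male lay below the lowest GH male, so the groups did not overlap. By the quasi-likelihood test of edgeR, with Benjamini-Hochberg adjustment over the 500 miRNAs, SI differed from GH by −1.56 on the log2 scale (adjusted p = 0.023, standard error 0.40). In GH females miR-135b-5p was at 263, 347, 395, 404 and 556 CPM, and in SI females at 37.2, 147, 174, 254 and 278 CPM. SI female I10F, at 278 CPM, lay above the lowest GH female and the other 4 SI females lay below all 5 GH females. The log2 fold change in females was −1.14 (standard error 0.39), and its adjusted p of 0.11 missed the threshold (edgeR).

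miR-135b-5p was the 1 of 6 members called in males, where 4.0% of all miRNAs tested were called and 2.60% were called as lower. None of the 6 was called in females, where 0.400% of all miRNAs were called (edgeR), while 3 of the 6 had an unadjusted p under 0.05 there, as had 20.8% of all miRNAs. DESeq2, the tool the study used, called 3 of the 6 and 10.9% of all 617 miRNAs in females, at adjusted p = 0.049 for miR-135a-5p, 0.025 for miR-135b-5p and 0.037 for miR-16-5p. In males the call of miR-135b-5p was lost at adjusted p between 0.050 and 0.0625 without any 1 of GH males G16M, G18M and G20M or SI males I15M, I17M and I20M, and it was lost with the I17 libraries exchanged (adjusted p = 0.074). The log2 fold change stayed between −1.69 and −1.43 in the 20 fits that left out 1 library each.

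**Figure D1:**
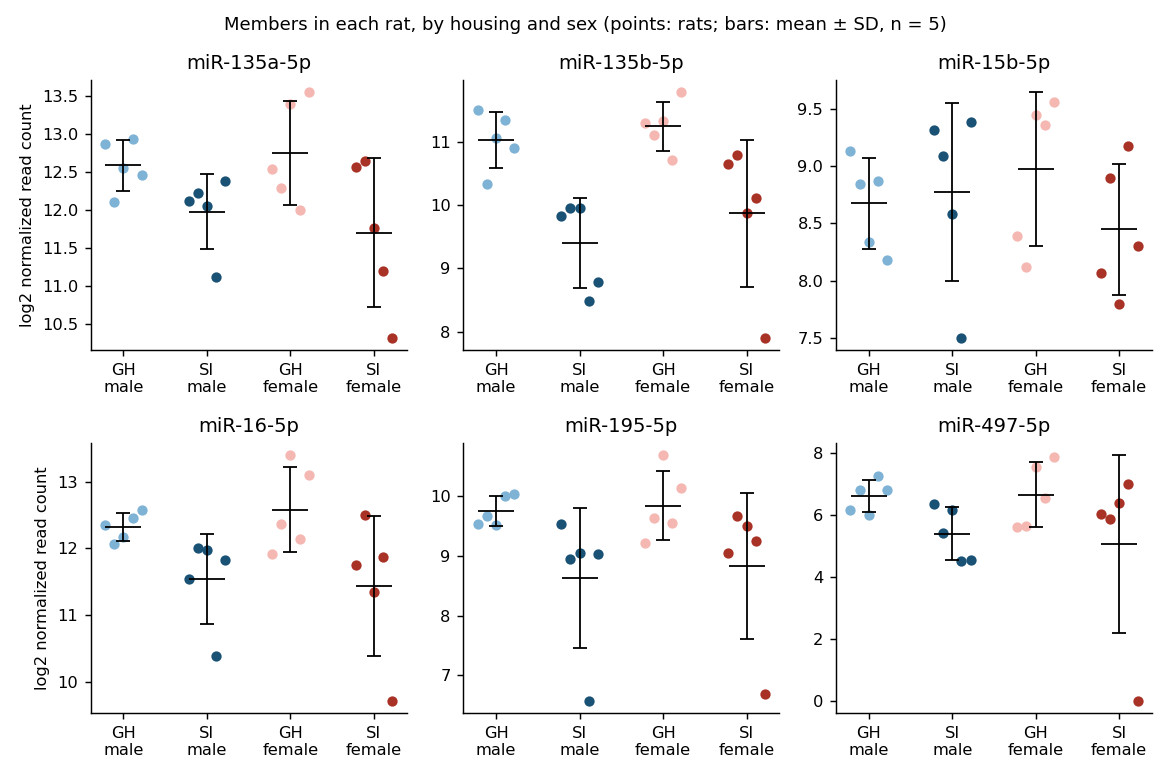
Log2 normalized read counts of the 6 members (panels) in each of the 20 rats, by group on the horizontal axis; points are rats and bars are the mean ± SD of 5. miR-135b-5p and miR-16-5p of the SI males lie below those of every GH male, I16F is the lowest SI female in 5 panels, and the panels have different vertical ranges.

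Its close relative miR-135a-5p overlapped between the housing groups in both sexes. GH males had 688, 882, 937, 1163 and 1226 CPM and SI males 347, 663, 694, 744 and 832 CPM. Of the SI males 2 of 5 lay below all GH males, and the log2 fold change was −0.58 (standard error 0.37, adjusted p = 0.37, edgeR). In females, GH rats had 639, 777, 924, 1676 and 1874 CPM and SI rats 199, 365, 544, 949 and 1000.4 CPM. The GH females G16F and G17F stood above all others, 3 of 5 SI females lay below all GH females, and the log2 fold change was −0.95 (standard error 0.37, adjusted p = 0.12, edgeR).

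Because both miR-135 members are counted in the same library, their ratio does not depend on the normalization between libraries. In GH males there were 0.296 to 0.391 reads of miR-135b-5p for each read of miR-135a-5p, and in SI males 0.0829 to 0.235. All 5 SI males lay below all 5 GH males, and the mean log2 ratio was −1.55 ± 0.15 in GH and −2.57 ± 0.60 in SI (SD, n = 5), a difference of −1.02 (exact permutation test, two-sided, p = 0.0079, which is the smallest that 252 assignments allow; adjusted p = 0.048 over 18 ratio tests). SI male I20M had the lowest ratio, and without it the difference was −0.77. With reads without a mismatch the difference was −1.05, no smaller, but the adjusted p was 0.071 and the call was lost. The adjusted p also depends on the other ratios tested. Among them, miR-195-5p to miR-195-3p in males had an adjusted p of 0.13 with these reads. In females the mean log2 ratio was −1.49 ± 0.39 in GH and −1.82 ± 0.48 in SI, the groups overlapped, and the difference of −0.33 did not pass (exact permutation test, p = 0.32, adjusted p = 0.52). The adjusted p in males rose above 0.05, to at most 0.107, when certain single rats were left out. These were any 1 of the 5 GH males, SI male I17M or, through the adjustment over both sexes, any 1 of the 5 GH females.

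miR-16-5p was the other member whose male groups did not overlap. GH males had 669, 717, 816, 873 and 957 CPM and SI males 208, 464, 569, 631 and 639 CPM. Such separation was seen in 2 of 6 members in males and in 13.8% of all miRNAs tested (9.20% with SI lower), and in no member in females, against 2.0% of all. The log2 fold change in males was −0.68 (standard error 0.37, adjusted p = 0.27, edgeR), with I17M far below the other 4 SI males. GH females had 603, 706, 822, 1366 and 1682.5 CPM and SI females 131, 407, 536, 582 and 902 CPM, and 4 of 5 SI females lay below all GH females. The log2 fold change in females was −1.02 (standard error 0.38, adjusted p = 0.11, edgeR).

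miR-15b-5p, whose gene lies beside the miR-16 gene placed above, did not have the lower values of miR-16-5p in SI males, which were themselves not called. The reads carry no genome coordinates, so whether all miR-16-5p reads came from this pair was not tested. GH males had 45.3, 50.4, 71.9, 73.2 and 87.7 CPM, and SI males 28.2, 59.8, 85.0, 99.5 and 105 CPM. The SI males spread over a wider range that held both the lowest and the highest values, and the log2 fold change was 0.20 (standard error 0.37, 95% confidence interval −0.57 to 0.96, adjusted p = 0.87, edgeR). GH females had 43.3, 52.4, 103, 109 and 118 CPM and SI females 34.7, 41.8, 49.3, 74.3 and 90.2 CPM, and differed by −0.55 on the log2 scale (adjusted p = 0.43, edgeR). The log2 ratio of miR-15b-5p to miR-16-5p within a library was −3.64 ± 0.49 in GH males and −2.77 ± 0.46 in SI males (SD, n = 5). That difference of 0.88 had an exact permutation p of 0.024 and an adjusted p of 0.071, and the groups overlapped. In females the difference was 0.62 (exact permutation p = 0.28), and it was 0.23 without I16F, the rat with the highest ratio.

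The miR-195 and miR-497 pair had lower means in SI rats of both sexes, with no member of it called. miR-195-5p was at 114, 116, 126, 159.7 and 163 CPM in GH males and at 14.7, 77.5, 81.9, 82.5 and 116 CPM in SI males. The lowest value belonged to I17M, I15M reached the GH range, and the log2 fold change was −0.87 (standard error 0.45, adjusted p = 0.25, edgeR). GH females had 92.6, 117, 124, 175 and 257 CPM and SI females 15.9, 82.8, 94.6, 113 and 127 CPM, and differed by −0.82 on the log2 scale (adjusted p = 0.32, edgeR). miR-497-5p was the least abundant, with 23 to 199 reads in the males. It was at 9.73 to 23.9 CPM in GH males (median 17.1) and at 3.39 to 12.6 CPM in SI males (median 6.54), and at 7.50 to 36.6 CPM in GH females (median 14.5) and 0 to 19.9 CPM in SI females (median 9.97). Its log2 fold changes of −1.09 in males and −0.87 in females had standard errors of 0.80 and 0.79 (adjusted p = 0.46 and 0.58, edgeR). The ratio of miR-195-5p to miR-497-5p differed between housing groups by 0.09 on the log2 scale in males and by 0.52 in females (exact permutation p = 0.84 and 0.63).

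When the housing effects of the sexes were averaged with equal weight in the same model, 3 of the 6 members passed as lower in SI rats. Over all miRNAs, 17.6% were called in this contrast, 10.2% as lower. The log2 fold change was −1.35 for miR-135b-5p (adjusted p = 0.0039, standard error 0.28), −0.85 for miR-16-5p (adjusted p = 0.030, standard error 0.26) and −0.76 for miR-135a-5p (adjusted p = 0.045, standard error 0.26; all edgeR). miR-195-5p, at −0.84 (standard error 0.32), had an adjusted p of 0.071, miR-497-5p, at −0.98 (standard error 0.56), one of 0.24, and miR-15b-5p, at −0.18 (95% confidence interval −0.72 to 0.36), one of 0.72. The median over the 6 was −0.85, against −0.0046 over all 500 miRNAs.

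miR-135b-5p kept its call in all 20 fits without 1 library (adjusted p 0.00067 to 0.011) and lost it only where the fit was restricted to the 10 rats whose numbers recur in both housings. miR-16-5p lost its call, with an adjusted p of up to 0.0724, without any 1 of GH male G21M, SI males I15M and I17M, GH females G16F and G17F or SI female I17F. miR-135a-5p lost it, with an adjusted p of up to 0.101, without any 1 of 12 libraries, namely GH males G16M, G18M, G20M and G21M, SI males I15M, I17M, I19M and I22M, GH females G16F and G17F and SI females I12F and I17F. miR-135a-5p, with 30.4% G and C, and miR-135b-5p, with 34.8%, are the members poorest in these bases, and miR-16-5p has 45.5%. Fitting each library's deviations on GC content and removing that trend, an alternative added after seeing the data, left averaged log2 fold changes of −0.28 for miR-135a-5p (adjusted p = 0.22), −0.97 for miR-135b-5p (adjusted p = 0.00097) and −0.53 for miR-16-5p (adjusted p = 0.027). It called 2 of the 6 members and 27% of all miRNAs, and it moved the median of all miRNAs by 0.29, so each of the 3 still lay below that median. The part of base composition in the housing differences was not tested. Without I16F and I17M together, another alternative added after seeing the data, 3 of the 6 and 16% of all miRNAs passed, now miR-135b-5p (−1.14, adjusted p = 0.0010), miR-16-5p (−0.63, adjusted p = 0.031) and miR-195-5p (−0.57, adjusted p = 0.046), while miR-135a-5p was at −0.57 (adjusted p = 0.087, edgeR).

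**Figure D2:**
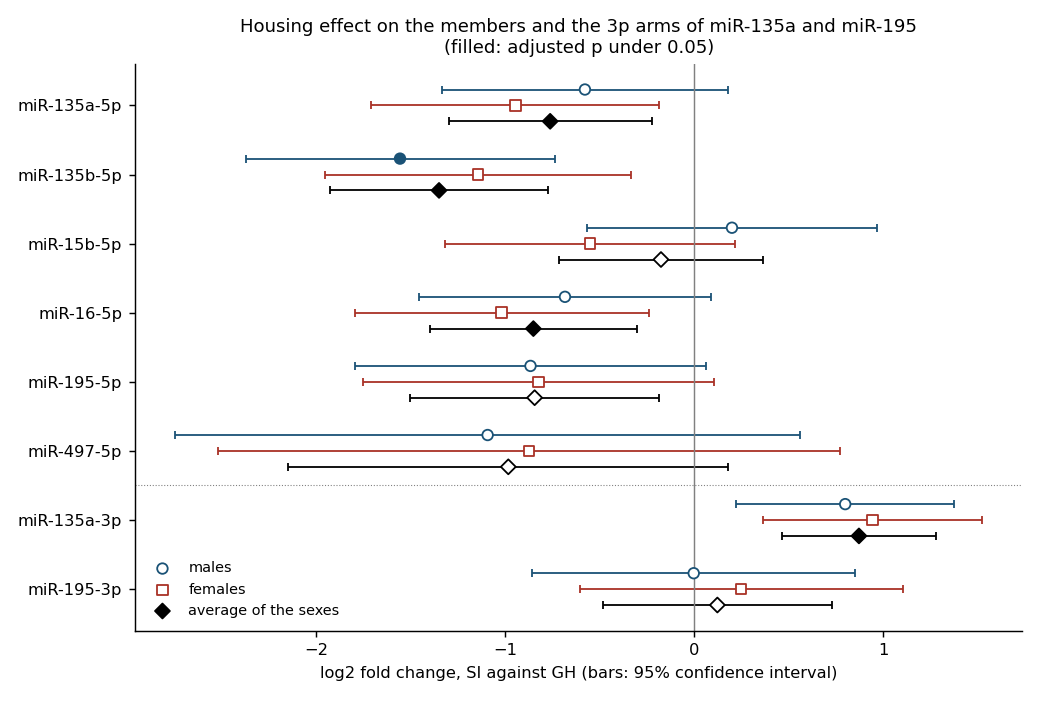
Log2 fold change of SI against GH (horizontal axis) for the 6 members and, below the dotted line, the 3p arms of miR-135a and miR-195, in males, in females and averaged over the sexes; bars are 95% confidence intervals and filled symbols passed an adjusted p of 0.05. miR-135b-5p is the member filled in males, miR-135a-5p, miR-135b-5p and miR-16-5p are filled in the average, and miR-135a-3p lies to the right of 0 in all 3 contrasts.

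No difference between the sexes in these housing effects was detected. For the 6 members the adjusted p of the interaction ran from 0.81 to 0.99, and 0.400% of all miRNAs were called (edgeR). For miR-135b-5p the 95% confidence interval of the interaction ran from −0.72 to 1.54 on the log2 scale. Between females and males none of the 6 members passed in GH rats (adjusted p = 0.996 for each) or in SI rats (adjusted p 0.79 to 0.99), and 0 of 500 miRNAs passed in either comparison with edgeR. At an unadjusted p under 0.05, 2.40% of all miRNAs differed between the sexes in GH rats and 10% in SI rats, and none of the members did. DESeq2 called 5 miRNAs in each of these comparisons, no member among them.

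Each precursor yields a 5p and a 3p arm, of which one is usually retained and the other degraded. Both arms of a hairpin are cut from the same transcript, so the opposite arms were examined beside the members. For miR-135a the 3p arm was

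rno-miR-135a-3p: uGUAGGGAuggaagccaugaaa

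and it moved against the 5p arm. miR-135a-3p was at 102, 120, 144, 179.8 and 231 CPM in GH males and at 198, 251, 273, 295 and 333 CPM in SI males. In GH females it was at 97.7, 97.9, 119, 125 and 188 CPM and in SI females at 146, 204, 229, 237 and 391 CPM. A single GH male and a single GH female reached the range of the SI rats of their sex. Averaged over the sexes its log2 fold change was 0.87 (standard error 0.20, adjusted p = 0.0058), and it was 0.80 in males (adjusted p = 0.090) and 0.94 in females (adjusted p = 0.084; all edgeR). The averaged value was between 0.75 and 0.97 and passed in all 20 fits without 1 library.

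Within libraries, reads of miR-135a-5p outnumbered those of miR-135a-3p by 2.98 to 11.4 times in GH males and by 1.38 to 3.75 times in SI males. The mean log2 ratio was 2.68 ± 0.71 in GH and 1.24 ± 0.52 in SI (SD, n = 5), a difference of −1.44 with an exact permutation p of 0.016 and an adjusted p of 0.071. In females the ratio ran from 3.40 to 19.1 in GH and from 0.509 to 6.86 in SI, and I16F was the 1 rat in which the 3p arm had more reads than the 5p arm. The mean difference in females was −1.96 (exact permutation p = 0.048, adjusted p = 0.11). Of the 18 ratio tests 3 passed after adjustment, and the arm ratio of miR-135a was not among them.

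The other arms were measured with fewer reads. miR-195-3p, with 52 to 244 reads a library, had an averaged log2 fold change of 0.12 (adjusted p = 0.84, edgeR). Reads of miR-195-5p outnumbered it by 5.45 to 9.50 times in GH males, by 3.56 to 5.39 times in 4 SI males, while I17M had 0.571 reads of the 5p arm for each read of the 3p arm, and the groups did not overlap (difference of the log2 ratio −1.14, exact permutation p = 0.0079, adjusted p = 0.048, and 0.13 with reads without a mismatch). Without I17M the difference was −0.55 (adjusted p = 0.086), and in females the groups overlapped (difference −1.25, exact permutation p = 0.13). The third ratio that passed was miR-135b-5p to miR-135b-3p in females (difference −2.64, exact permutation p = 0.0079, adjusted p = 0.048). It rested on 7 to 33 reads of the 3p arm in GH females and 18 to 78 in SI females, it was −1.85 without I16F, and its adjusted p was as high as 0.14 without 1 rat and 0.071 with reads without a mismatch. miR-16-3p and miR-497-3p had too few reads for the test across miRNAs. miR-16-3p had 0 to 50 reads in SI males, with reads in 4 of them, up to 7 reads in 2 GH females, and none in GH males or SI females. In males the log2 ratio of miR-16-5p to miR-16-3p differed by −4.60 with 1 read added to each count and by −2.86 with 5 reads added, so its size was set by the added reads (exact permutation p = 0.024, adjusted p = 0.071). miR-497-3p had 10 reads in 1 GH male and none in the other 19 rats, and its ratio tests had exact permutation p of 0.88 in males and 0.43 in females.

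**Figure D3:**
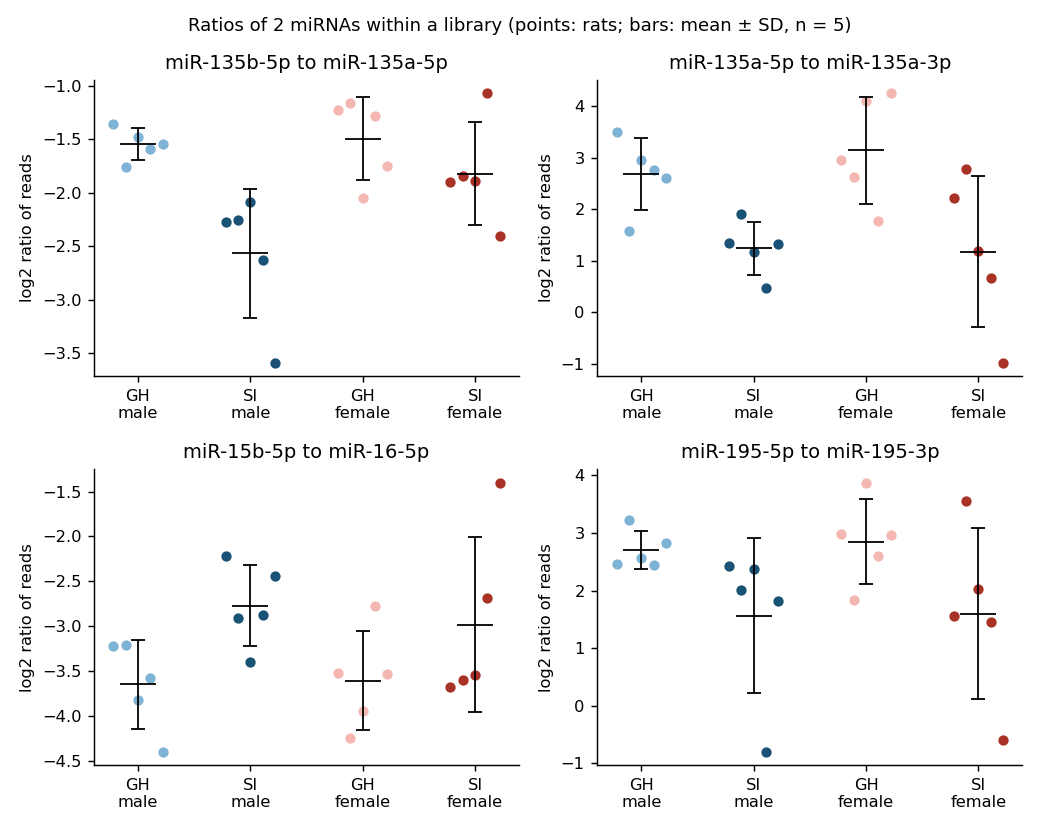
Log2 ratio of the reads of 2 miRNAs within each library (vertical axes, 4 panels) by group; points are rats and bars the mean ± SD of 5, with 1 read added to each count. In the panel of miR-135b-5p to miR-135a-5p all SI males lie below all GH males, and in the panels of the arm ratios I17M and I16F are the lowest of their groups.

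The sequence files also give the ends of every read. The reference sequence made up 82.5% of miR-135a-5p reads, 71.5% of miR-135b-5p reads, 60.1% of miR-16-5p reads and 58.8% of miR-15b-5p reads. For miR-195-5p and miR-497-5p another form was about as common as the reference, and these forms are shown because they set what a read count of these miRNAs contains, in DNA letters with the extra base in capitals.

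miR-195-5p, reference form: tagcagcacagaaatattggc
miR-195-5p, extended by the next base of the hairpin: tagcagcacagaaatattggcA
miR-497-5p, reference form: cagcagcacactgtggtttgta
miR-497-5p, shortened by 1 base: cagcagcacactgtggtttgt

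The reference form was 39.8% of miR-195-5p reads and the extended form 36.6%. Of the miR-497-5p reads, 43.2% were the shortened form and 38.8% the reference. Few reads began at another 5′ base, which would shift the seed: the mean over rats was 1.63% for miR-135a-5p, 1.31% for miR-135b-5p, 0.828% for miR-16-5p, 1.17% for miR-195-5p and 0.418% for miR-15b-5p. Bases added to the 3′ end that are not in the hairpin were mostly A for 5 members, from 63.1% of the additions of miR-135b-5p to 92.9% of those of miR-16-5p. For miR-497-5p T alone was the more common addition, at 53.4%.

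Housing was compared for the share of each kind of end and for the mean length of 5 members, in 25 tests in males and 25 in females. None passed after adjustment over the 50 (lowest adjusted p = 0.30). The smallest p that 252 assignments allow is 0.0079, and a single share at that p could not pass the adjustment. Of the 50, 4 in males and 2 in females had an unadjusted exact permutation p under 0.05. Of these 6, both sexes held the same pair for miR-16-5p. The share of miR-16-5p reads with a 3′ addition was 13.1% ± 0.75 in GH males and 18.9% ± 5.73 in SI males (SD, n = 5, exact permutation p = 0.016, adjusted p = 0.30), and 10.2% ± 2.03 in GH females and 19.4% ± 13.5 in SI females (p = 0.016 and adjusted p = 0.30 by the same exact test). I16F, at 43.5%, lay far above the other SI females, and without it the difference in females was 3.22 percentage points instead of 9.24. The share with a shortened 3′ end was 32.9% ± 2.76 in GH males and 42.2% ± 8.34 in SI males, and 28.0% ± 3.66 in GH females and 37.8% ± 7.57 in SI females (exact permutation p = 0.024 and adjusted p = 0.30 in each sex).

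The number of distinct read sequences behind a member differed between libraries and moved with its level. For miR-135b-5p the males had 11 to 29 when group housed and 3 to 12 when isolated, and the females 14 to 27 and 2 to 14. In I16F and I17M every read of miR-195-5p, 83 and 108 reads, had a single sequence, and miR-497-5p had no read in I16F and 25 reads of a single sequence in I17M. Libraries were amplified in 22 cycles from 215 ng of RNA and the counts are of reads, so counting error alone understates the error of such values. The part of library complexity in the housing differences was not tested.

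**Figure D4:**
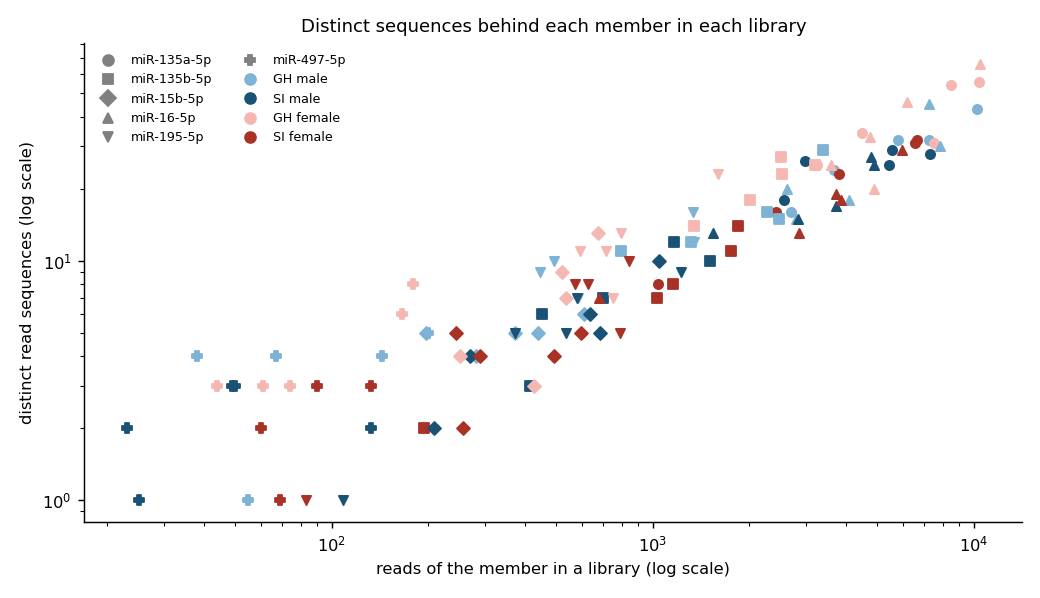
Number of distinct read sequences (vertical axis, log scale) against the reads of a member (horizontal axis, log scale) in each library; symbols mark the 6 members and colours the 4 groups, and the library with no miR-497-5p read is left out. The miR-195-5p points of I16F and I17M stand at 1 sequence, and the miR-135b-5p points run from 194 to 1845 reads in SI rats and from 795 to 3390 in GH rats.

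Across the 20 rats the members varied together to different degrees. Pearson's r of the log2 normalized counts was 0.92 for miR-16-5p with miR-195-5p (Spearman's rho 0.84), 0.89 for miR-16-5p with miR-135a-5p (rho 0.75) and 0.83 for miR-135a-5p with miR-135b-5p (rho 0.82). miR-15b-5p had the lowest values, from 0.29 with miR-135b-5p (rho 0.27) to 0.53 with its cluster partner miR-16-5p (rho 0.40). After the group means were subtracted, r was 0.90 for miR-16-5p with miR-195-5p, 0.81 for the miR-135 pair and 0.53 for miR-15b-5p with miR-16-5p. Without the 2 rats farthest from the median of miR-135a-5p, r was 0.70 for the miR-135 pair. These are descriptions over libraries that share their normalization, and I16F and I17M were low for most members at once.

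The miRNA most like each member over the 20 rats was miR-872-5p for miR-135a-5p (r = 0.92), miR-136-3p for miR-135b-5p (r = 0.94), miR-335 for miR-16-5p (r = 0.96), miR-377-3p for miR-195-5p (r = 0.95), miR-374-3p for miR-497-5p (r = 0.92) and miR-151-5p for miR-15b-5p (r = 0.72). The next for miR-16-5p was miR-126a-3p (r = 0.95), a miRNA of endothelial cells, and the next for miR-15b-5p was its relative miR-15a-5p (r = 0.67).

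Single miRNAs of the vessel, blood and oligodendrocyte lists were called in the same averaged contrast as the members. The endothelial miRNAs miR-126a-3p and miR-126a-5p summed to 880 to 1231 CPM in GH males and 259 to 698 CPM in SI males, and to 947 to 2234 CPM in GH females and 79.9 to 1096 CPM in SI females. Of these, miR-126a-3p was called as lower in the average of the sexes (log2 fold change −1.11, adjusted p = 0.011, edgeR), 1 of 2. The 4 mural cell miRNAs, led by miR-143-3p, summed to 9477 to 14377 CPM in GH males and 4090 to 6582 CPM in SI males, and to 9996 to 19861 CPM in GH females and 2117 to 13870 CPM in SI females, which overlapped. Of these 1 of 4, miR-143-3p, was called as lower (log2 fold change −0.99, adjusted p = 0.0059, edgeR). miR-486, abundant in red blood cells but also made in muscle, was called as higher (log2 fold change 0.92, adjusted p = 0.0039, edgeR), while miR-451-5p, the defining red blood cell miRNA, was at 0 to 27.6 CPM and at 0 reads in 4 libraries, and the other 2 of that list, both arms of miR-144, stayed at or below 16.4 CPM. Of the oligodendrocyte list 1 of 3, miR-338-3p, was called as lower (log2 fold change −1.74, adjusted p = 0.016, edgeR), while the list summed to 2527 to 4990 CPM in GH males and 3274 to 6379 CPM in SI males, and to 2783 to 4856 CPM in GH females and 2558 to 6828 CPM in SI females. None of the 4 neuronal miRNAs, nor any of the choroid plexus, ependymal and myeloid lists, was called. The part of these cells in the members' results was not tested.

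The other measured relatives of the family were rarer. miR-322-5p, the rat counterpart of miR-424 with the same seed, fell short of the threshold in the average (log2 fold change −1.18, adjusted p = 0.082, edgeR), with medians of 18.8 CPM in GH males, 7.14 in SI males, 27.5 in GH females and 14.8 in SI females. miR-15a-5p had medians of 21.4, 13.3, 20.8 and 4.62 CPM in the same order and a log2 fold change of −1.80 (adjusted p = 0.089, edgeR), and it had no reads in 1 SI male and 2 SI females. miR-503-5p, whose seed differs, was at 0.16 (adjusted p = 0.86, edgeR). None of the 3 was called in any housing contrast.

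Of 4 further miRNAs with a background link to serotonin receptors or the transporter, miR-24-3p was called as lower in the average of the sexes (log2 fold change −1.19, standard error 0.24, adjusted p = 0.0039, edgeR), with medians of 2349.8 CPM in GH males against 1266 in SI males and 3097 in GH females against 1329 in SI females. miR-34a-5p rose in males, from a median of 53.1 CPM in GH to 166 CPM in SI (log2 fold change 1.52, adjusted p = 0.0070, edgeR), and was at −0.46 in females (adjusted p = 0.42), and the interaction passed (adjusted p = 0.041, edgeR). That interaction was lost in 15 of the 20 fits without 1 library (adjusted p up to 0.148), among them those without any 1 SI male, GH male except G20M, or SI female except I17F, and without GH females G16F or G17F. It was also lost with the I17 libraries exchanged (adjusted p = 0.41) and with the GC trend removed (adjusted p = 0.22). miR-26a-5p had a log2 fold change of −0.08 in the average (95% confidence interval −0.39 to 0.23, edgeR), and miR-96-5p had too few reads to be tested. In the average 1 of the 3 tested passed, as lower.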

How the data were processed

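The authors trimmed adapters, collapsed identical reads and aligned them to rat hairpins of miRBase 21 with seqbuster in the bcbio-nextgen pipeline; FastQC and STAR are also named per the labels, without versions. The deposited tables (1 per rat, 20 rats, 3428930 to 11383055 reads) give the read count of every distinct sequence of at least 2 reads with its miRNA, mismatch, additions and end differences. These counts were not normalized. Counts were summed by miRNA, with reads matching several miRNAs counted for each. A miRNA was kept when 5 or more of the 20 libraries held 10 counts or more of it (500 of 617). Library sizes were scaled by TMM and 1 model of the 4 groups was fitted with edgeR 4.0.16 in R 4.3.3 (quasi-likelihood F test, Benjamini-Hochberg adjustment over the 500, threshold 0.05). The contrasts were housing in each sex, their average, their interaction, and sex in each housing. Each standard error is the log2 fold change over the square root of F. CPM were computed on TMM-scaled library sizes.

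Ratios were taken on log2 counts with 1 read added, and shares where a member had at least 50 reads in every library compared, both with two-sided exact permutation tests. Alternatives were DESeq2 1.42.0 (which the study used), limma 3.58.1 voom with quality weights, other filters and size factors, other read sets, the I17 libraries exchanged, each library left out and a replicate block. The deposited tables held counts only, and no fold changes or p-values of the authors were used. In simulated data with 200 of 500 miRNAs changed, the fit for males recovered 31% of changes of 1 and 64% of changes of 2 on the log2 scale, and 3.06% of its calls were of unchanged miRNAs. The real fit called 4.0% of miRNAs in males, a smaller share than was changed here, so the recovery may be lower in the real data. The text names the members, their opposite arms, family relatives, other serotonin-linked miRNAs, marker lists for 8 cell types, and the miRNAs that correlate most with each member. The members and all lists were chosen with earlier results of these data known. miR-15a-5p had no RefSeq sequence matched and none is printed.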

Additional observations from a re-analysis of the deposited data

Results flagged for a closer look

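In groups of 5 rats, a value was taken as far from the others when its gap to the nearest exceeded the 95% critical value of Dixon's test. For normally distributed values chance gives this in about 1 group in 20, and it was met 26 times in 144 groups. Where every other rat of a group was at 0, any share above 0 met it, as for miR-15b-5p in I22M and I14F. The rate of 1 in 20 does not hold for such groups. SI male I17M and SI female I16F recur. I17M was low for miR-135a-5p (log2 normalized count 11.1, nearest 12.1), miR-16-5p (10.4, nearest 11.5) and miR-195-5p (6.57, nearest 8.96), and for the log2 ratio of miR-195-5p to miR-195-3p (−0.802, nearest 1.82). In the same rat, miR-135b-5p had 11.9% of reads with another 5′ end, 0.0% with a shortened 3′ end and a mean length of 23.3 nt, miR-16-5p a mean length of 21.4 nt, and miR-195-5p 0.0% of reads with a shortened 3′ end. I16F was low for miR-195-5p (6.69, nearest 9.05) and miR-497-5p (0.0, nearest 5.88), had 43.5% of miR-16-5p reads with a 3′ addition, and had 100% of miR-195-5p reads with an extended 3′ end.

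The other values concern read ends, most from members with few distinct sequences in a library. Among GH males, G16M had 2.99% of miR-135b-5p reads with an extended 3′ end, G19M a mean miR-135b-5p length of 22.6 nt and 8.30% of miR-195-5p reads with another 5′ end, and G20M 22.3% of miR-15b-5p reads with a shortened 3′ end. Among SI males, I22M had 6.99% of miR-135b-5p reads with an extended 3′ end and 6.32% of miR-15b-5p reads with another 5′ end, and I19M 11.3% of miR-15b-5p reads with a 3′ addition. GH female G15F had 22.2% of miR-195-5p reads with a 3′ addition and 7.30% with an extended 3′ end. Among SI females, I10F had 2.71% of miR-135b-5p and 3.44% of miR-195-5p reads with another 5′ end, I17F 8.75% of miR-135b-5p reads with an extended 3′ end, and I14F 14.2% of miR-15b-5p reads with an extended 3′ end. No cause of these values was tested.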

How the results depend on the processing

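Over 1181 recalculated log2 fold changes of the members, 1145 kept their sign, 37 lost a call and 12 gained one, and no call changed direction. Among 1717 values of the other miRNAs named 50 lost a call and 56 gained one, and among 432 ratios 36 and 3, again with no reversal. Among 1150 shares no test changed its side of the threshold, which a single share could not pass alone. Averaged over the sexes, miR-135a-5p lost its call under limma voom with quality weights (adjusted p = 0.0695), with reads of the reference 5′ end (0.0516), under the GC correction (0.22) and without I16F and I17M together (0.087). miR-195-5p gained one with DESeq2 (0.0239), limma voom (0.0341) and at least 10 counts in every library (0.0361). Without SI female I10F, miR-195-5p passed in the average (0.047), and miR-135b-5p and miR-16-5p passed in females (0.040 and 0.039).

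Counts of called miRNAs moved more, and the number tested differed between settings. It was 500 in the main fit, 307 with at least 10 counts in every library and 617 with DESeq2. It was 499 without I16F and I17M together and 472 with reads of the reference 5′ end. In males 20 were called, against 40 with at least 10 counts in every library, 89 with only the groups compared, 11 with the I17 libraries exchanged, 60 with DESeq2, 87 with limma voom, 31 with the GC correction and 66 without I16F and I17M together, and 7 (without I15M) to 73 (without I16F) without 1 library. In females 2 were called, against 40, 0, 5, 67, 3, 82 and 7 in the same order, and 1 to 63 (without I10F) without 1 library. In the average 88 were called, against 135 with the GC correction and 58 to 117 without 1 library. The interaction had 2, against 0 with DESeq2 size factors, with the I17 libraries exchanged, with reads of the reference 5′ end and with the GC correction, 6 with DESeq2, and 0 to 2 without 1 library. Sex in GH and in SI rats had 0 with edgeR and 5 with DESeq2 in each. Members called numbered 0 to 1 in males, 0 to 2 in females and 1 to 4 in the average without 1 library. In males 0 members were called with the I17 libraries exchanged, where 11 of 500 miRNAs were. In females 1 member was called with at least 10 counts in every library, where 40 of 307 miRNAs were. With DESeq2 3 members were called in females, where 67 of 617 miRNAs were. Ratio tests passing numbered 0 in each sex with reads without a mismatch, and 0 to 4 in males and 0 to 2 in females without 1 library.

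The labels number the rats, but nothing says that a number links an SI rat with a GH rat, and the deviations of the 5 same-numbered pairs correlated at −0.304 to 0.09. A replicate block on these 10 rats called 0 miRNAs and 0 members in every housing contrast and the interaction, with log2 fold changes in the average of −1.75 for miR-135b-5p (adjusted p = 0.18), −1.11 for miR-16-5p and −1.06 for miR-135a-5p. The same 10 rats without the block gave 0 miRNAs in males, 46 in females with 1 member, 20 in the average with 0 members, and 0 for the interaction. Depth limits miR-497-5p most: 1 read was worth 0.0952 to 0.256 CPM, and sequences with 1 read are not listed.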
